A study of Mus musculus with 1279 samples.

Results

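Chemokines and cytokines are the secreted signals by which connective tissue cells call in and sustain immune cells. The members described here are 10 such genes, Cxcl1, Cxcl2, Cxcl12, Cxcl14, Ccl2, Ccl7, Ccl11, Ccl19, Il6 and Il34, taken by name from the 46517 genes of a heart count table and followed over 8 cell clusters and 4 mouse strains. Chemokines bind G protein-coupled receptors on leukocytes and are held on heparan sulphate of the matrix, and atypical receptors remove them without the usual signalling. Tissue fibroblasts are known sources of neutrophil and monocyte attractants, and IL-34 is a ligand of the receptor CSF1R on which macrophages depend.

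The data were read counts of 1279 single cells of adult mouse hearts, sequenced with Smart-seq2, a plate method that reads whole transcripts and has no molecular identifiers. All mice were male, 10 to 20 weeks old and on a C57Bl6/J background, and endothelial cells positive for CD31 were excluded by the sort. Cells of the strain C57BL6 were sorted with antibodies against PDGF receptors, whereas PdgfrbGFP, Cspg4dsRED and Acta2GFP carried a fluorescent reporter under regulatory sequences of Pdgfrb, Cspg4 or Acta2 that served to enrich such cells in the sort. For Acta2GFP, elastase was added to the dissociation. The study placed clusters 1 to 5 among fibroblasts, with cluster 1 as likely valve interstitial cells. Clusters 6 to 8 were taken here as mural cells, with cluster 6 as smooth muscle cells of large vessels, 7 as vascular smooth muscle cells and 8 as pericytes, which is an assumption.

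There were 926 cells in clusters 1 to 5 and 353 in clusters 6 to 8, with the most cells from C57BL6 (581) and PdgfrbGFP (364) and the other cells from Acta2GFP and Cspg4dsRED. The median cell had 274504 counts. The summed level of 5 fibroblast markers (Pdgfra, Col1a1, Dcn, Lum and Tcf21) was 9358 to 12356 counts per 1000000 (CPM) over strains in clusters 1 to 5 and 708 to 2064 CPM in clusters 6 to 8, and 5 mural markers (Rgs5, Notch3, Mcam, Des and Pdgfrb) were at 244.2 to 528 CPM and 5946 to 14157 CPM. The 3 C57BL6 cells of cluster 6 carried both kinds of markers, with fibroblast markers at 9822 CPM and smooth muscle markers at 11019 CPM, the latter within the 9946 to 13384 CPM of cluster 6 over strains. The summed level of 8 immune markers was 5.08 to 38.6 CPM on the fibroblast side and 0.8291 to 28.2 CPM on the mural side, with 184.5 CPM in the 9 cells of PdgfrbGFP in cluster 7 as the highest in any cluster, and that of 4 mesothelial markers was at most 0.0836 CPM in any sum. Endothelial markers summed to 111.4 to 320.4 CPM on the fibroblast side and 4.401 to 41.7 CPM on the mural side, and cardiac muscle markers to 22.26 to 104.5 CPM and 292.2 to 1018.4 CPM. In the means by cluster, Tek gave 81.1 to 187.98 of 92.3 to 199.8 CPM of the endothelial sum in clusters 2 to 5, and Pecam1, which encodes CD31, gave 50.4 of 70.3 CPM in cluster 1 and 114.2 of 117.4 CPM in cluster 6, while Cdh5 was at most 2.75 CPM. Pln gave 1141 of 1560 CPM of the cardiac muscle sum in cluster 7 but 41.1 of 259.4 CPM in cluster 8. Their part in the differences between the sides was not tested.

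Counts were summed per strain, and a value below is the CPM of such a sum unless a single cell is named. Strain, sort, plate and mouse cannot be told apart, each reporter strain came from 1 plate, and p-values measure only the spread between strains. As the clusters were made by the study from the same counts, a difference between clusters is no independent evidence that the clusters exist. A higher sum can come from more cells with a transcript or from more transcript per cell, and both are therefore given.

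Cxcl1, Cxcl2 and Il6 are, like Ccl2, classically switched on by inflammatory signals through NF-kB. RefSeq gave promoter windows for 6 of the 10 members (GRCm38.p6), and those of Ccl2, Ccl7, Ccl11 and Il34 were not analysed here. The 250 bases before the start site of Cxcl1, Cxcl2 and Il6 are printed 5′ to 3′ on the strand of the gene, because their levels in the same cells differed so widely. Capitals mark matches on either strand to GGG, any 3 bases and TTCC, a form of the NF-kB site, or TGANTCA, a form of the AP-1 site; matches may overlap.
Cxcl1, chr5:90890995-90891244, plus strand: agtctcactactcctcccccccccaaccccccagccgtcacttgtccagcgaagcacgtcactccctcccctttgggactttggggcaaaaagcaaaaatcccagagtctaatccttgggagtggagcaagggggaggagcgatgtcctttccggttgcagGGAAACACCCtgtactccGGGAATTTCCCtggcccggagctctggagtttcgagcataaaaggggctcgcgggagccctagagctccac
Cxcl2, chr5:90903649-90903898, plus strand: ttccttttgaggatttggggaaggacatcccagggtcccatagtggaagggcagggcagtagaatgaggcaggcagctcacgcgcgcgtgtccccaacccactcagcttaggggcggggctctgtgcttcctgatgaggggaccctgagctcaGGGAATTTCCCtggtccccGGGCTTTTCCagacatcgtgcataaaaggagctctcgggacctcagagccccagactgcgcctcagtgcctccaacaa
Il6, chr5:30012864-30013113, plus strand: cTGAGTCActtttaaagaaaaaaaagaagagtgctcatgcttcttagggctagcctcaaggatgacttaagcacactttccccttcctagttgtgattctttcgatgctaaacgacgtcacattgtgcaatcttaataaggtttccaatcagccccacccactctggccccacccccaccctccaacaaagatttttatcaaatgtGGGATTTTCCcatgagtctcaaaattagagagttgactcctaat

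The NF-kB form matched 3 times in the window of Cxcl1, 3 times in that of Cxcl2 and 1 time in that of Il6, counting both strands, and 4.65% of 32851 RefSeq windows of this length held it. The neighbours Cxcl1 and Cxcl2 share a run of 14 bases, GGGAATTTCCCTGG, that starts 71 bases before the start site of Cxcl1 and 97 bases before that of Cxcl2. TGANTCA matched 1 time, in Il6, and is present in 6.75% of all windows. The windows of Cxcl12, Cxcl14 and Ccl19 held no match to either, nor did any of the 6 windows match TATAAA, present in 12.4% of all windows. A match describes letters and is not a measured binding site. The windows end at RefSeq start sites, which differ for some members from the GENCODE M21 positions given below. The windows of Cxcl1, Cxcl2 and Ccl19 reach into the gene as placed there. For Ccl19 most of the window (42756366 to 42756615) lies inside the gene, which ends at 42756577.

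Cxcl1 (chromosome 5, 90891241 to 90893115, plus strand), a neutrophil attractant that acts through CXCR2, had the highest level per merged exon length of all members in fibroblasts. Divided by the merged exon length, fibroblasts held 271.2 ± 114.9 CPM per kb of Cxcl1 (SD, n = 4 strains), 215.6 ± 97.2 of Cxcl14, 91.5 ± 37.9 of Ccl11, 78.2 ± 20.2 of Ccl7, 45.3 ± 10.5 of Ccl19, 30.2 ± 4.88 of Cxcl12, 29.02 ± 20.98 of Il6, 24.9 ± 14.7 of Ccl2, 8.75 ± 7.26 of Il34 and 0.367 ± 0.426 of Cxcl2. In this order Cxcl1 and Cxcl14 differed by less than their SDs, as did Ccl11 and Ccl7, Cxcl12 and Il6, and Il6 and Ccl2. The merged exon length equals the whole gene for Cxcl1 (1875 bases) and Cxcl2 (2068 bases), and is 8176 bases for Cxcl12. Orders between members depend on these lengths. In mural cells the order was led by Il34 at 101.01 ± 43.03 and Cxcl12 at 97.7 ± 43.2 CPM per kb, a difference smaller than their SDs. The name fibroblast chemokines therefore did not cover all members: Cxcl12 and Il34 were higher in mural cells, and Cxcl2 was close to absent.

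**Figure D1:**
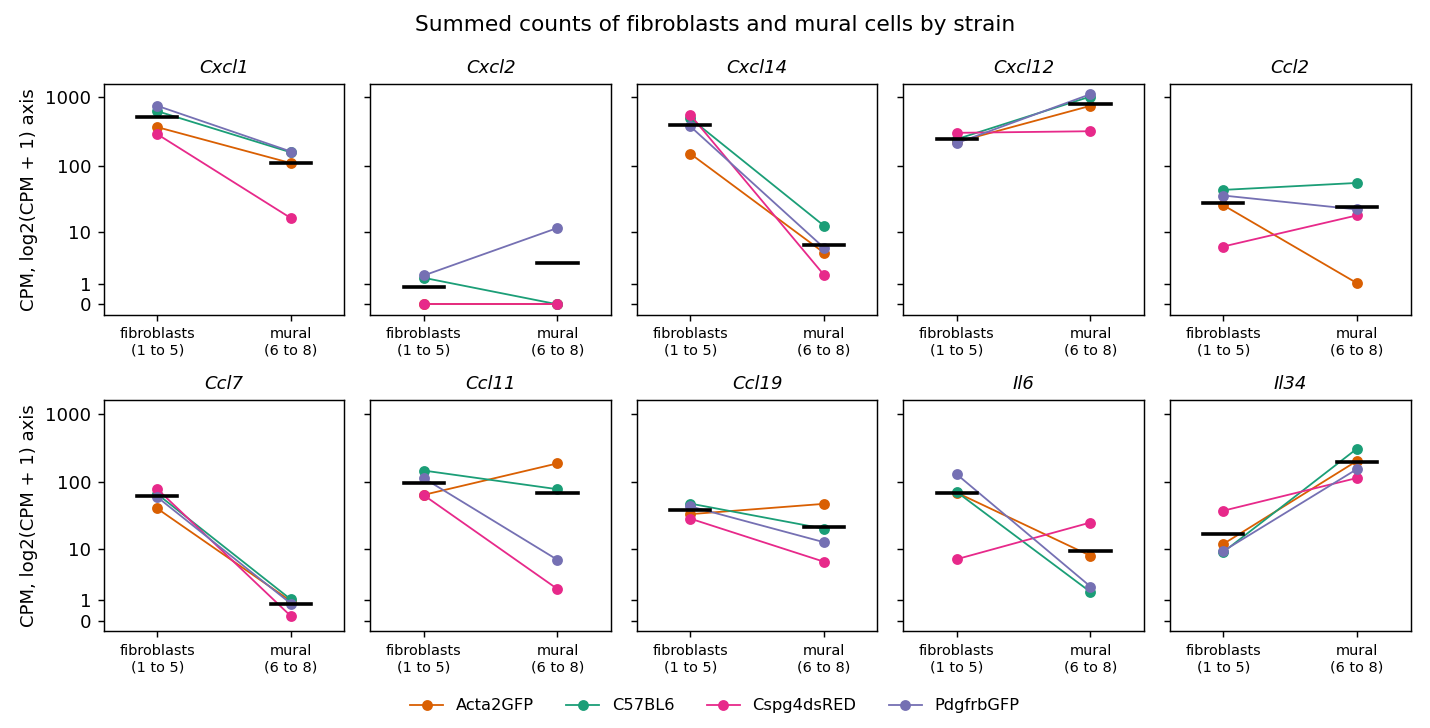
CPM of summed counts of each member in fibroblasts (clusters 1 to 5) and mural cells (clusters 6 to 8), on a log2(CPM + 1) axis labelled in CPM. Each line is 1 strain and black bars are means of 4 strains; Cxcl14 and Ccl7 fall in every strain from fibroblasts to mural cells, and Il34 and Cxcl12 rise in every strain.

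Of the 10 members, 9 passed the filter on low counts in the comparison of fibroblasts with mural cells, and 4 had an adjusted p under 0.05 with the edgeR quasi-likelihood test, 2 higher and 2 lower in fibroblasts. Among all 15117 genes tested 5.93% did so, 3.47% higher and 2.45% lower. The ranges of the strains did not overlap for 5 members, against 14.7% of genes tested. The median log2 fold change of the 9 members was 0.85 and that of all genes tested was -0.02. The members were chosen with earlier results of these data known. Their counts beside the share of all genes, here and below, are therefore descriptions.

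Cxcl14 (chromosome 13, 56288643 to 56296551, minus strand), a chemokine of epithelia and stroma, was the clearest fibroblast member together with Ccl7. Its fibroblast level was 151.2 CPM in Acta2GFP, 493 in C57BL6, 554 in Cspg4dsRED and 378 in PdgfrbGFP, and its mural level 4.58, 12.7, 1.67 and 5.59 CPM in the same order. The groups did not overlap, and the log2 fold change was 6.01 (adjusted p = 0.00106 with edgeR, SE 0.71). At 100 CPM or more stood 230 of 926 fibroblasts and 0 of 353 mural cells. By counting error alone, with the cells of all strains pooled, a count of 0 leaves room for a share of 0.850%. Low counts of Cxcl14 were nevertheless found in 45.9% of mural cells, where the highest cell had 92.7 CPM. On the plates of the 4 strains, the mural counts of Cxcl14 correlated at r = 0.21 to 0.45 with the fibroblast counts in the same plate row or column (4 plates, at least 37 mural cells each, log2 counts); the part of index exchange between wells was not tested.

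Ccl7 (chromosome 11, 82045712 to 82047525, plus strand), which attracts monocytes through CCR2, stood at 41.5 CPM in Acta2GFP, 67.8 in C57BL6, 80.3 in Cspg4dsRED and 61.2 in PdgfrbGFP fibroblasts. Mural cells had 0.927, 1.04, 0.170 and 0.777 CPM. All 4 fibroblast values lay far above all mural values, with a log2 fold change of 6.43 (adjusted p = 0.000845 with edgeR, SE 0.74). As for Cxcl14, no mural cell reached 100 CPM, whereas 78 fibroblasts did.

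Il34 (chromosome 8, 110741829 to 110805924, minus strand) ran the other way. It stood at 11.99 CPM in Acta2GFP, 8.92 in C57BL6, 38.4 in Cspg4dsRED and 9.28 in PdgfrbGFP fibroblasts, and at 206.6, 312, 116.3 and 157.04 CPM in their mural cells. The highest fibroblast value was below the lowest mural value, and the log2 fold change was -3.58 (adjusted p = 0.00489 with edgeR, SE 0.56). The exons of Gm15894 and Gm15895 on the opposite strand overlap those of Il34; without strand, reads of these genes cannot be told apart, and they were listed with 471 and 1479 counts against 17414 for Il34.

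Cxcl12 (chromosome 6, 117168535 to 117181367, plus strand), the ligand of CXCR4 that retains blood progenitors and guides vessel growth, had 223.3, 245.5, 304 and 215.1 CPM in fibroblasts of Acta2GFP, C57BL6, Cspg4dsRED and PdgfrbGFP, and 749, 1021, 320 and 1106 CPM in mural cells. The fibroblast levels were alike between strains, whereas mural cells of Cspg4dsRED were scarcely above their fibroblasts. The log2 fold change was -1.73 (adjusted p = 0.0255 with edgeR, SE 0.39). This call was lost with a block for strain (adjusted p = 0.0867), without Acta2GFP (0.121), without C57BL6 (0.154) and without PdgfrbGFP (0.142), with edgeR in each case.

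Cxcl1 was higher in fibroblasts of every strain, at 368 CPM in Acta2GFP, 626 in C57BL6, 290.6 in Cspg4dsRED and 749 in PdgfrbGFP, against 109.9, 157.7, 16.7 and 162.1 CPM in mural cells. The groups did not overlap, but the log2 fold change of 2.18 (SE 0.64) had an edgeR adjusted p of 0.0819. It passed the threshold with a block for strain (adjusted p = 0.0341), when cluster 6 was left out (0.0414) and without Cspg4dsRED (0.0419), each with edgeR. At 100 CPM or more stood 51.2% of fibroblasts (Wilson 95% interval 47.97 to 54.4) and 6.23% of mural cells (4.15 to 9.26). These intervals pool the cells of all strains and cover counting error only, not the spread between strains.

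Il6 (chromosome 5, 30013114 to 30019981, plus strand), which signals through gp130, had 70.95, 72.5, 6.82 and 131.5 CPM on the fibroblast side and 7.75, 1.62, 25.6 and 2.14 CPM on the mural side of Acta2GFP, C57BL6, Cspg4dsRED and PdgfrbGFP. Cspg4dsRED alone went against the other strains, and the log2 fold change of 2.98 (SE 1.04) had an edgeR adjusted p of 0.150. Without Cspg4dsRED it was 0.0215.

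For Ccl2, Ccl11 and Ccl19 the sides overlapped. Ccl2 (chromosome 11, 82035571 to 82037453, plus strand), the main ligand of CCR2, had means of 28.3 ± 16.7 and 24.6 ± 23.1 CPM in fibroblasts and mural cells (SD, n = 4), and 1 cell gave 98.6% of the Ccl2 counts of C57BL6 mural cells. Ccl11 (chromosome 11, 82057823 to 82062955, plus strand), the eosinophil attractant eotaxin, had 98.97 ± 41.1 and 69.5 ± 87.8 CPM. Ccl19 (chromosome 4, 42754525 to 42756577, minus strand), which guides lymphocytes and dendritic cells through CCR7, had 39.3 ± 9.12 and 22.03 ± 18.6 CPM. Their log2 fold changes were 0.21, 0.55 and 0.85, with edgeR adjusted p of 0.952, 0.879 and 0.610.

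The Ccl19 values are uncertain. Of the 50-base stretches of its transcripts, 51.97% are also in transcripts of other genes (GENCODE M21), among them Gm2564, which had 22289 counts against 14983 for Ccl19 and a count in 552 of the 635 cells with a Ccl19 count. Together with its copies, Ccl19 stood at 102.3 ± 21.97 CPM on the fibroblast side and 52.8 ± 36.2 CPM on the mural side (SD, n = 4). For the other members at most 5.84% of stretches were shared, in Cxcl2 with Cxcl3.

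Cxcl2 (chromosome 5, 90903871 to 90905938, plus strand), the neighbour of Cxcl1 and like it a ligand of CXCR2, had 595 counts in 34 cells, and 10 cells held 95.97% of them. It had no count in any cell of Acta2GFP or Cspg4dsRED. The fibroblast sums of C57BL6 and PdgfrbGFP held 1.42 and 1.62 CPM, and the mural sum of PdgfrbGFP 11.8 CPM. It did not pass the filter on low counts between fibroblasts and mural cells, and levels of Cxcl1 and Cxcl2 per exon length stood at 271.2 and 0.367 CPM per kb in fibroblasts.

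**Figure D2:**
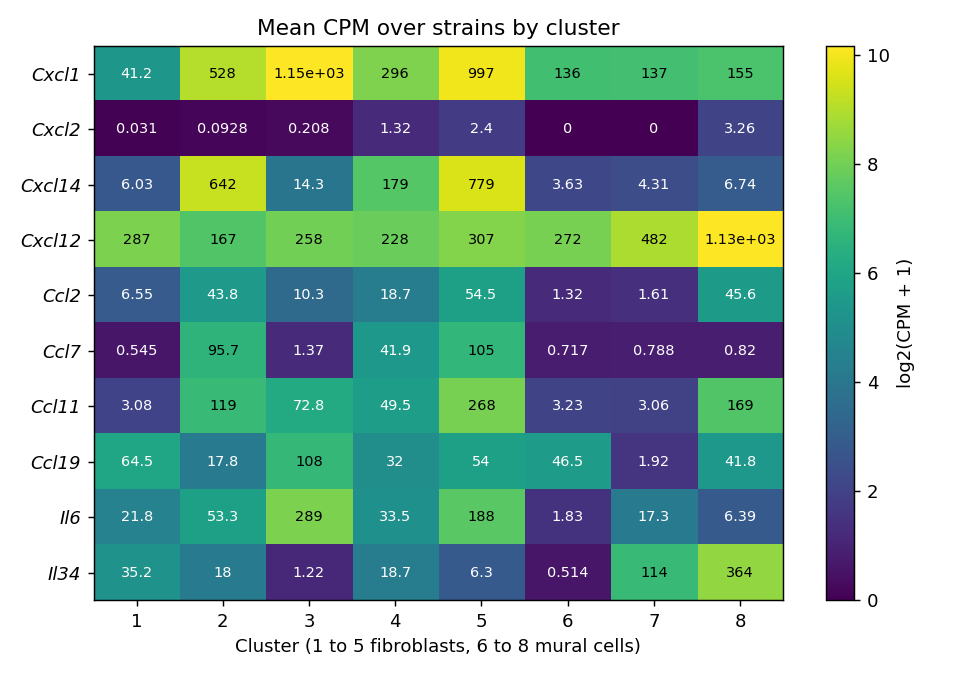
Mean CPM over strains (sums of 3 cells or more) of the 10 members in each of the 8 clusters; numbers are CPM and colours log2(CPM + 1). Cxcl14 and Ccl7 are high in clusters 2, 4 and 5, Cxcl1 in clusters 2 to 5, and Il34 and Cxcl12 in cluster 8.

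Within the fibroblasts, the likely valve cells of cluster 1 held less Cxcl14, Ccl7 and Ccl11. Compared with clusters 2 to 5, 3 of 9 members tested were lower with the edgeR quasi-likelihood test and none was higher, where 1.33% of 13201 genes tested were called. Cxcl14 had 6.41 CPM in Acta2GFP, 7.10 in C57BL6, 7.40 in Cspg4dsRED and 3.22 in PdgfrbGFP in cluster 1, and 191.8, 511, 599 and 424 CPM in clusters 2 to 5. These groups lay far apart, with a log2 fold change of -6.21 (adjusted p = 0.000248 with edgeR, SE 0.50).

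Ccl7 was at 1.13, 0.676, 0 and 0.372 CPM in cluster 1, against 52.7 to 86.9 CPM (log2 fold change -6.73, adjusted p = 0.00590 with edgeR, SE 0.93). Ccl11 was at 6.98, 3.38, 1.23 and 0.743 CPM, against 70.5 to 154.8 CPM (log2 fold change -5.09, adjusted p = 0.0122 with edgeR, SE 0.82). Both calls were lost with a block for strain, at edgeR adjusted p of 0.0515 and 0.0579. Both were also lost without Acta2GFP (0.0621 and 0.0600), without C57BL6 (0.0815 and 0.191) and without PdgfrbGFP (0.0658 and 0.102). The 3 cells of Cspg4dsRED in cluster 1 give its sum little depth.

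Cxcl1 in cluster 1 was at 16.4 CPM in Acta2GFP, 14.9 in C57BL6, 0 in Cspg4dsRED and 133.4 in PdgfrbGFP, against 315 to 827 CPM in clusters 2 to 5, without overlap. Its log2 fold change of -3.65 (SE 1.04) had an edgeR adjusted p of 0.150. The ranges did not overlap for 4 of 9 members, against 9.36% of genes tested. By contrast Cxcl12 (286.7 ± 64.9 against 239.3 ± 52.2 CPM), Ccl19 (64.5 ± 39.6 against 36.4 ± 8.05 CPM) and Il34 (35.2 ± 64.6 against 15.8 ± 9.97 CPM) had means at least as high in cluster 1 (SD, n = 4), and with edgeR their adjusted p were 0.972, 0.880 and 0.993. The Il34 mean rests on Cspg4dsRED, where 1 cell gave 99.1% of its counts. The summed level of 18 immediate early genes, which include stress and dissociation responders, was 5502 to 17142 CPM in cluster 1 and 9691 to 22309.5 CPM in clusters 2 to 5; its part in these differences was not tested.

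Among clusters 2 to 5, none of the members passed the edgeR threshold in any comparison of 1 cluster with the other ones, and neither did any gene (0% called in all 4). DESeq2 called 1.22%, 2.61%, 1.29% and 0.789% of genes for clusters 2, 3, 4 and 5, and limma on the mean CPM per cell 0, 2, 15 and 0 genes. At an unadjusted p under 0.05 stood 2 of 9 members tested for cluster 2, 4 of 10 for cluster 3, 4 of 9 for cluster 4 and 6 of 10 for cluster 5, where 4.62%, 6.05%, 4.75% and 3.89% of all genes did. Of the members DESeq2 called 0, 2, 0 and 2, and limma none. Cluster 3 had sums of 3 strains and cluster 5 of 2, so that the values below describe these sums.

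Cluster 3 had high Cxcl1 and little Cxcl14. Cxcl14 stood at 6.23 CPM in Acta2GFP, 31.2 in C57BL6 and 5.55 in PdgfrbGFP, against 420 ± 188.6 CPM in clusters 2, 4 and 5 (log2 fold change -4.78, adjusted p = 0.152 with edgeR, SE 0.78). With a block for strain the adjusted p was 0.00526. Ccl7 stood at 0.916, 1.33 and 1.85 CPM, against 71.8 ± 10.7 CPM (-5.60, adjusted p = 0.364 with edgeR, SE 1.26), and no cell of cluster 3 reached 100 CPM.

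Cxcl1 in cluster 3 was at 722, 955 and 1775 CPM, higher than in the other clusters of each strain summed (log2 fold change 1.08, adjusted p = 0.544 with edgeR, SE 0.39, and 0.0314 with the block). The Il6 mean of cluster 3, 288.8 ± 383 CPM, was carried by PdgfrbGFP at 730 CPM, where 1 of 7 cells held 91.01% of the counts. Ccl19 had its highest mean there, 107.8 ± 40.9 CPM (SD, n = 3). The ranges did not overlap for 5 of 10 members, against 16.2% of genes tested. In cluster 3 the immediate early genes summed to 14235, 26161 and 24163 CPM in Acta2GFP, C57BL6 and PdgfrbGFP, and 4 smooth muscle markers to 1447, 75.2 and 948 CPM; their part in these levels was not tested.

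Cluster 5 was the largest cluster, but its sums come from C57BL6 and PdgfrbGFP alone. In both strains its Cxcl14 and Ccl11 were above those of clusters 1 to 4, whereas in C57BL6 cluster 2 had more Ccl7 (111.1 CPM) and Ccl2 (89.5 against 41.6 CPM). Cxcl14 was at 911 CPM in C57BL6 and 648 in PdgfrbGFP, Ccl7 at 80.7 and 128.5, and Ccl11 at 333 and 202.7. Against clusters 2 to 4, the log2 fold changes were 1.48 (SE 0.23) for Cxcl14 and 1.90 (SE 0.29) for Ccl11, and the edgeR adjusted p was 1.00 for both. Il6 was at 174.04 and 201.1 CPM. With 2 strains, 7 of 10 members did not overlap, against 32.2% of genes tested. The 18 immediate early genes summed to 26925 and 27714 CPM in cluster 5, more than in any other cluster of these strains, and their part in its levels was not tested.

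Cluster 2 had means of 642 ± 236.4 CPM for Cxcl14 and 95.7 ± 45.3 CPM for Ccl7 (n = 4). Those of cluster 5 were 779 ± 185.8 and 104.6 ± 33.8 CPM (n = 2), and the 2 clusters were not tested against each other. Ccl7 was higher in cluster 2 than in cluster 5 in C57BL6 but lower in PdgfrbGFP. Cluster 2 had little Cxcl12 (166.7 ± 26.5 CPM) and Ccl19 (17.8 ± 7.45 CPM), without overlap with clusters 3 to 5 summed for these members, 2 of 9 tested, where 4.12% of genes did not overlap. Its Ccl19 was the lowest of clusters 1 to 5 in each strain (sums of at least 3 cells), but cluster 4 had less Cxcl12 than cluster 2 in Acta2GFP (144.4 against 160.1 CPM) and PdgfrbGFP (156.4 against 202.9 CPM). Cluster 4 had less Cxcl1 (296 ± 111.5 CPM against 708 ± 234.8 CPM in clusters 2, 3 and 5), the only member of 9 without overlap (3.98% of genes), with a log2 fold change of -1.26 (adjusted p = 0.462 with edgeR, SE 0.35).

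In mural cells the pericyte cluster 8 had the highest mean Il34 and Cxcl12, although PdgfrbGFP had more Il34 in cluster 7. Il34 was at 516 CPM in Acta2GFP, 365 in C57BL6, 423 in Cspg4dsRED and 151.97 in PdgfrbGFP, and Cxcl12 at 1548, 1074, 762 and 1138 CPM. Cluster 7 held 65.3, 72.2 and 203.1 CPM of Il34 in Acta2GFP, Cspg4dsRED and PdgfrbGFP, the last from 9 cells of which 1 gave 90.6% of the counts. In cluster 6 Il34 was at most 1.08 CPM. Against cluster 7 over 3 strains, none of 8 members tested was called with edgeR, where 0.194% of genes were, 0.0843% higher and 0.11% lower. Of the 8, 2 had an unadjusted p under 0.05, against 6.88% of genes, DESeq2 called 1, against 3.20% of genes, and limma none, against 0.379%. The log2 fold change was 1.53 (adjusted p = 0.782 with edgeR, SE 0.77) for Il34 and 1.12 (SE 0.58, adjusted p = 0.805) for Cxcl12. The immediate early genes summed to 3444 to 8119 CPM in cluster 8 and 11937 to 20239 CPM in cluster 7, and their part was not tested.

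The pericyte cluster also held Ccl11 and Ccl19 in Acta2GFP. Ccl11 was at 566 CPM in Acta2GFP (15 cells), 92.7 in C57BL6, 8.25 in Cspg4dsRED and 7.28 in PdgfrbGFP. At 100 CPM or more stood 9 of the 15 Acta2GFP cells of cluster 8 and 0.840% of those of PdgfrbGFP. The fibroblast markers of cluster 8 summed to 2645 CPM in Acta2GFP and to 513 to 1266 CPM in the other strains, and their part in this value was not tested. Against cluster 7 the log2 fold change of Ccl11 was 6.00 (adjusted p = 0.344 with edgeR, SE 1.89).

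**Figure D3:**
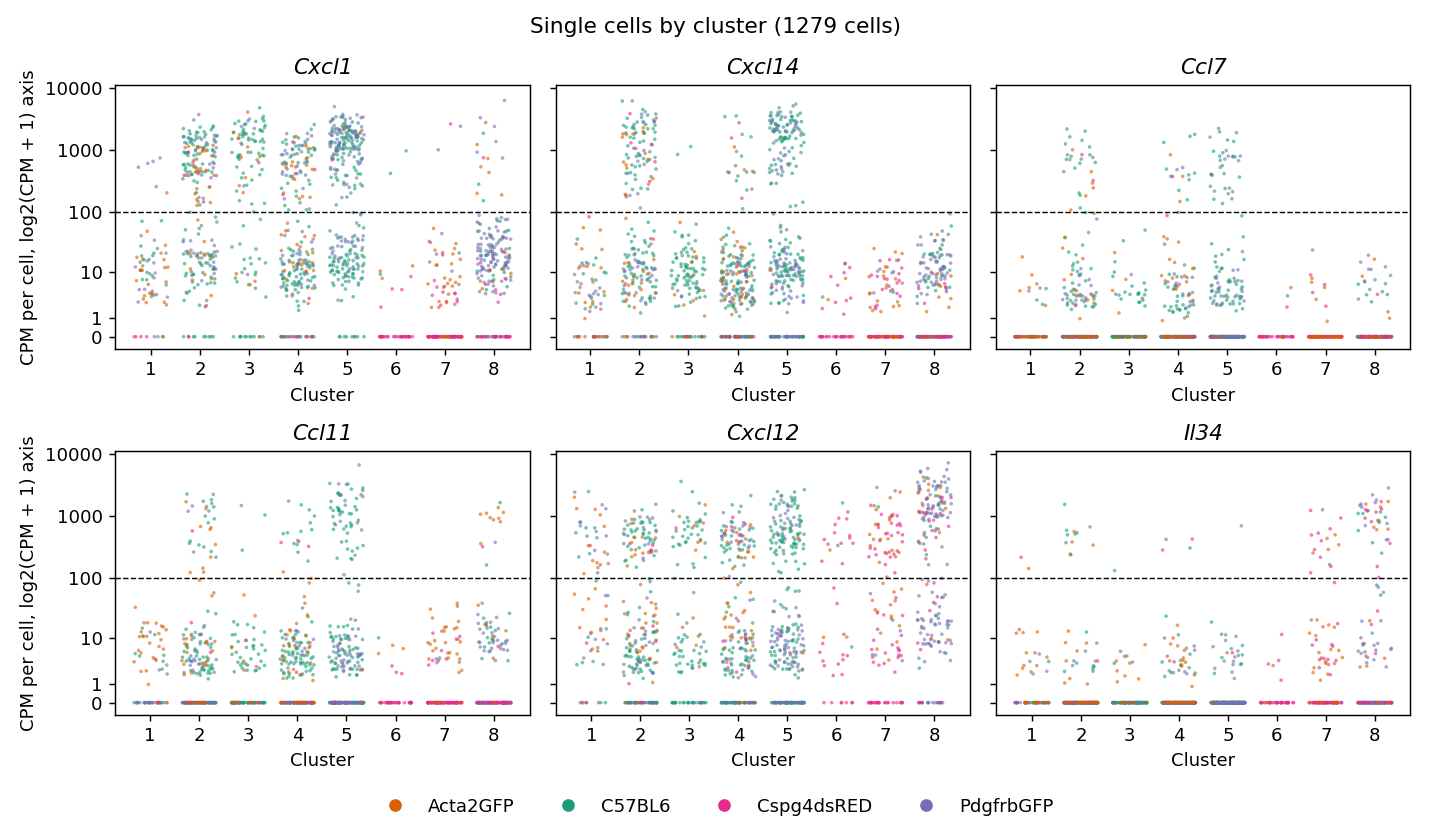
CPM of single cells (each dot 1 of 1279 cells, coloured by strain, on a log2(CPM + 1) axis labelled in CPM) by cluster for 6 members; the dashed line marks 100 CPM. Cells fall into an upper band above the line and a lower band near 10 CPM or at 0, and Cxcl14 and Ccl7 have no upper band in clusters 1, 6, 7 and 8.

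In single cells, most members were on in few cells at a high level. A line at 100 CPM, chosen after the distribution was seen, divides an upper band from many cells with a few reads. Cells above it held 98.6% of all Cxcl1 counts (496 cells), 98.1% of Cxcl14 (230 cells), 96.3% of Ccl7 (78 cells) and 98.1% of Il34 (75 cells). Ccl19 was less divided, with 64.01% of its counts in such cells. The shares of cells with any count were much higher, 93.3% of fibroblasts and 61.2% of mural cells for Cxcl1, and fell to 73.5% and 40.5% when cells were thinned to 50000 counts. These thinned shares leave out 2 cells that had fewer counts than this. The 10 cells with the most counts gave 5.82% of the counts of Cxcl1, but 42.6% of Ccl2, 34.7% of Il6, 31.3% of Il34 and 29.99% of Ccl7, whose sums therefore rest on few cells.

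**Figure D4:**
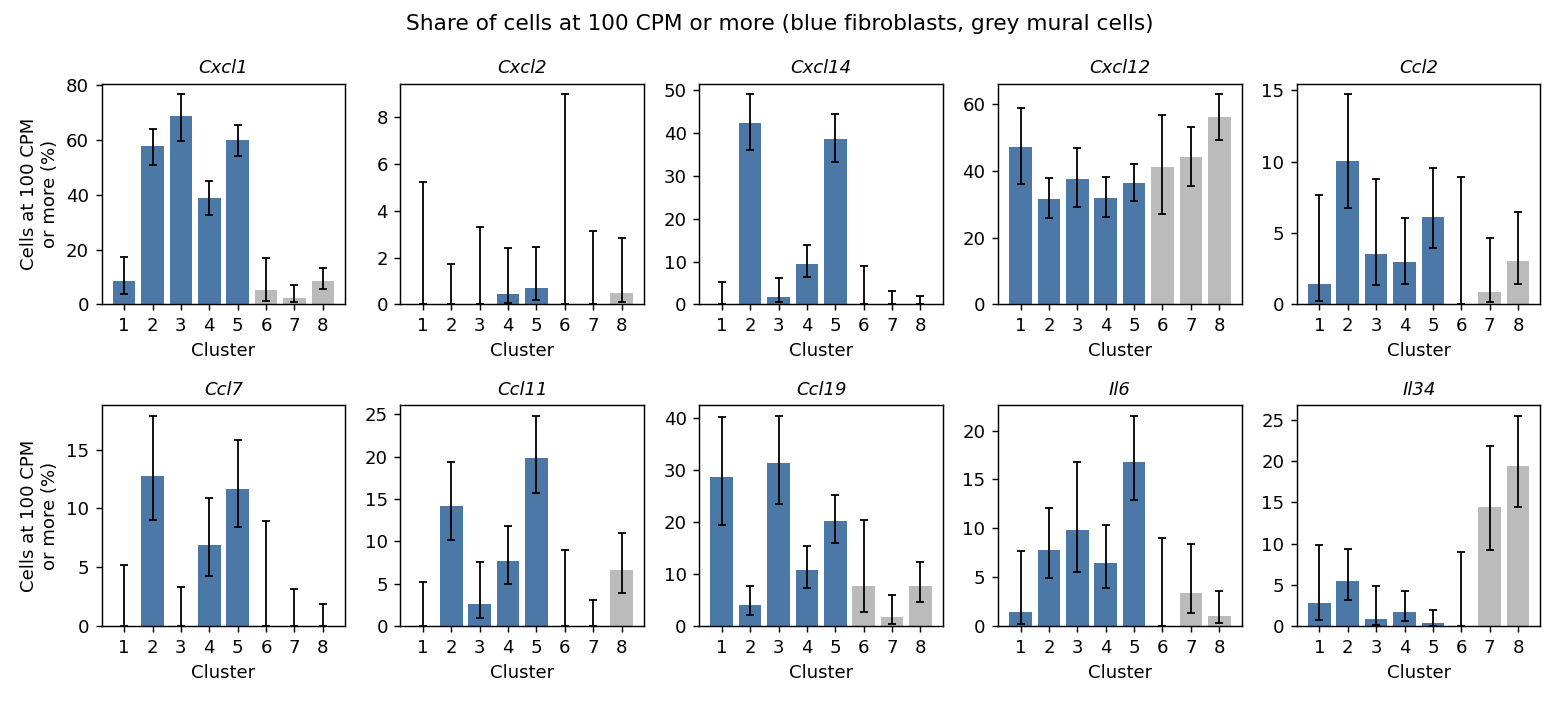
Share of cells at 100 CPM or more per cluster over all strains, with Wilson 95% intervals for counting error only; each panel has its own axis from 0. Cxcl1 is highest in clusters 2 to 5, Cxcl14 in clusters 2 and 5, Ccl19 in clusters 1, 3 and 5, and Il34 in clusters 7 and 8.

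These shares pool the strains, which are not mixed alike in the clusters. Cxcl14 was on in 42.5% of cluster 2 and 38.7% of cluster 5, but in 9.44% of cluster 4 and 1.79% of cluster 3. By strain the Cxcl14 share of cluster 4 was 10.0% in Acta2GFP, 8.66% in C57BL6 and 5.66% in PdgfrbGFP, but 30.8% in the 13 cells of Cspg4dsRED, and that of cluster 2 was 34.7% to 43.5% in the first 3 of these strains, with 6 of 8 cells in Cspg4dsRED. Cxcl1 was on in 38.6% to 68.8% of cells of clusters 2 to 5. Ccl19 was on in 28.6% of cluster 1 and 31.2% of cluster 3, against 4.11% of cluster 2, but many Ccl19 cells lay near the line, with a median of 154.04 CPM in the cells above it. Il34 was on in 14.4% of cluster 7 and 19.4% of cluster 8, and in 2.16% of all fibroblasts.

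Cells differed in how many members were on. Of the 856 cells of clusters 2 to 5, 17.8% had no member at 100 CPM or more, 30.5% had 1, 26.5% had 2, 15.9% had 3, 6.66% had 4 and 2.45% had 5, and 1 cell each had 6 and 7. Of 92 cells with Il6 on, 84.8% also had Cxcl1 on, where 54.7% of all these cells did, and of the cells with Cxcl1 on 16.7% had Il6. In log2(CPM + 1) the correlation of Cxcl1 and Il6 over cells was 0.19 to 0.27 in the 4 strains (Pearson, 23 to 525 cells; Spearman 0.19 to 0.29). The neighbours Ccl2 and Ccl7 were on together in 10 cells, 19.6% of those with Ccl2 and 12.8% of those with Ccl7, where 9.11% of all these cells had Ccl7 on and 5.96% Ccl2, and their correlation was 0.03 to 0.38 (Spearman -0.04 to 0.26). Cells of a strain share plate and depth, and these coefficients are descriptions.

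Within cells, Cxcl1 had the highest correlation of all members with immediate early genes in 3 strains, whereas Ccl2 did in Cspg4dsRED (r = 0.32). In clusters 2 to 5 its log2(CPM + 1) correlated with the summed level of the 18 immediate early genes at r = 0.59 in Acta2GFP, 0.40 in C57BL6, 0.27 in Cspg4dsRED and 0.41 in PdgfrbGFP, against -0.04 to 0.07 for Cxcl14 (23 to 525 cells). For Il6 these values were 0.34, 0.26, 0.07 and 0.17. Over the 27 sums of cluster and strain, which share libraries, Cxcl1 and Il6 had r of 0.62 and 0.68. With the summed NF-kB pathway genes r over the sums was 0.67 for Cxcl1 and 0.50 for Il6, and over cells 0.07 to 0.28 for Cxcl1 and -0.06 to 0.21 for Il6. The part of the dissociation in the level of Cxcl1 and Il6 was not tested.

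The genes most like each member over the same 27 sums (Pearson correlation of log2(CPM + 1) among 10326 genes with a mean of 10 CPM or more) were as follows. Cxcl14 and Ccl7 were each other's closest gene (r = 0.96), followed by Ifi205 and Ret for Cxcl14 (0.94 and 0.93) and by Ret and Scara5 for Ccl7 (0.96 and 0.94). Over single cells of clusters 2 to 5, however, r of Cxcl14 and Ccl7 was -0.12 to 0.28 by strain. Of the cells with Ccl7 on, 32.1% had Cxcl14 on, where 26.9% of all these cells did. For Cxcl1 the closest genes were Serping1, a complement inhibitor (0.93), Dpep1 (0.85) and Gpx3 (0.84). For Cxcl12 they were the pericyte gene Vtn (0.78), Gper1 (0.77) and Smagp (0.77), and for Il34 Scn3a (0.83), Smagp (0.80) and Oaz2 (0.78). Ccl11 was closest to Ms4a4d (0.83), Hsd11b1 (0.83) and Ifi211 (0.81), Ccl2 to Prex2 (0.79), Pla1a (0.78) and Mcu (0.77), and Il6 to Mindy4 (0.82), Slc43a1 (0.81) and Rgs17 (0.79). Ccl19 was closest to its copy Gm2564 (0.96), then Tnfaip6 (0.83) and Tmem119 (0.83), and Cxcl2, at few counts, had no value above 0.53 (Rpl29, Caap1 at 0.52 and Cit at 0.47).

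Other genes of the same system were read from lists. Of 29 other chemokines, 10 were tested between fibroblasts and mural cells, and 2 were higher in fibroblasts with edgeR, where 3.47% of genes tested were, the monocyte attractant Ccl8 (9.12 ± 10.1 against 0.0526 ± 0.0464 CPM, adjusted p = 0.0129) and the CXCR6 ligand Cxcl16 (181.6 ± 28.2 against 49.5 ± 28.6 CPM, adjusted p = 0.0208). Ccl8 was also lower in cluster 1 than in clusters 2 to 5 (0.0236 against 9.99 CPM, edgeR adjusted p = 0.0487), a call that was lost with a block for strain (0.155) and without any 1 strain (0.131 to 0.266). Of 26 other cytokines, 11 were tested. Il33, an alarmin of the interleukin-1 family, was at 198.8 ± 48.6 and 2.65 ± 1.13 CPM (log2 fold change 6.19, adjusted p = 0.000118 with edgeR, SE 0.48), and Lif and Il16 were also higher (6.41 and 3.91). Kitl, the ligand of KIT, was lower in fibroblasts (-2.62, edgeR adjusted p = 0.0372).

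Of 26 receptors, 15 were tested and 5 called with edgeR, where 5.93% of genes tested were. The atypical receptors Ackr2, which removes inflammatory CC chemokines such as CCL2, Ackr3, which takes up CXCL12, and Ackr4, which takes up CCL19, were all higher in fibroblasts. Ackr3 was at 686 ± 153.99 against 111.4 ± 74.9 CPM (log2 fold change 2.62, adjusted p = 0.0129), Ackr2 at 81.1 ± 30.1 against 0.876 ± 0.565 CPM (6.48, adjusted p = 0.00145) and Ackr4 at 43.9 ± 21.8 against 2.38 ± 1.97 CPM (4.22, adjusted p = 0.0265), all with edgeR (SD, n = 4). Ifngr1 was higher (1.93) and Ccrl2, a receptor that presents chemerin, lower (-1.70). By cluster these receptors were uneven. Ackr3 had means of 1191 and 753 CPM in clusters 4 and 5 and 190.4 to 381 CPM in clusters 1 to 3, beside 399.5 CPM in the mural cluster 7, and Ackr2 was at 212.4 CPM in cluster 4 but 0.731 CPM in cluster 3.

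Of 12 glycosaminoglycan and chemokine presenting genes, all tested, Hspg2, which encodes the heparan sulphate proteoglycan perlecan (414 ± 35.3 against 97.6 ± 47.8 CPM, log2 fold change 2.09, edgeR adjusted p = 0.0114), and Dpp4, a protease that trims CXCL12 among other chemokines (16.4 ± 10.3 against 0.2001 ± 0.0602 CPM, 6.32, adjusted p = 0.00715), were higher in fibroblasts. By cluster Dpp4 was uneven, with means of 46.04 CPM in cluster 4, 6.43 in cluster 2 and 6.23 in cluster 5. In clusters 1 and 3 it was at 0.199 and 0.486 CPM. Of 16 NF-kB pathway genes none was called with edgeR, with 2 at an unadjusted p under 0.05 (median log2 fold change 0.48), against 17.02% of genes. DESeq2 and limma called 0 of them as well. Of 17 immediate early genes tested 1, Jun, was called (1.48, edgeR adjusted p = 0.0253), a share near the 5.93% of genes tested. In the other comparisons the list genes called were Ccl8 above and, between clusters 8 and 7, the immediate early gene Atf3 (-4.11, edgeR adjusted p = 0.0314, but 0.441 without Cspg4dsRED and 0.230 without PdgfrbGFP).

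Of the 14 list genes called between fibroblasts and mural cells, Il33 and Ackr2 stayed under the edgeR threshold with a block for strain and without any 1 strain. With the block, the calls of Ackr4 (edgeR adjusted p = 0.101), Il16 (0.0553), Jun (0.0613), Kitl (0.0660) and Lif (0.0692) were lost. Without PdgfrbGFP, 11 of the 14 were lost, all but Il33, Ackr2 and Hspg2 (edgeR adjusted p 0.0519 to 0.206). Without Acta2GFP, 11 were lost, all but Il33, Ackr2 and Ackr3 (0.0535 to 0.181). Without Cspg4dsRED, those of Ackr3, Ackr4, Ccrl2, Cxcl16, Il16, Jun, Kitl and Lif were lost (0.0506 to 0.111), and without C57BL6 those of Ackr4, Ccl8, Ccrl2, Hspg2, Il16, Jun and Lif (0.0592 to 0.156). Without the cell with the most counts Kitl (edgeR adjusted p = 0.192) and Cxcl16 (0.0676) were lost and Ccl8 and Lif were not tested, with C57BL6 plates as units Kitl was lost (0.134), and without the filter Ccrl2 (0.0648).

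**Figure D5:**
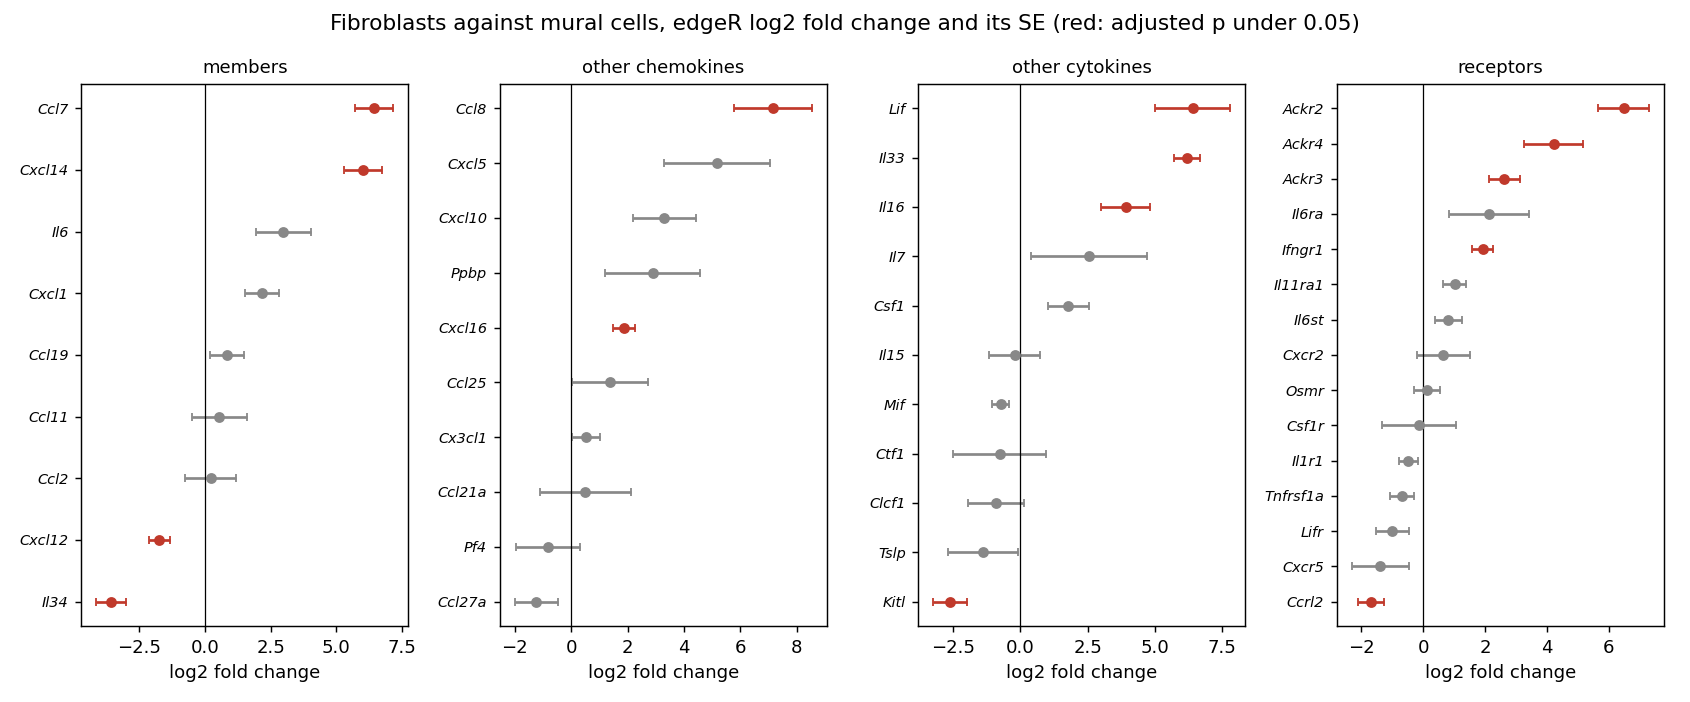
edgeR log2 fold change between fibroblasts and mural cells (positive: higher in fibroblasts) with its SE for the members tested and for the tested genes of 3 lists; red marks an adjusted p under 0.05. Cxcl14 and Ccl7 stand at the upper end of the members and Il34 at the lower end, and 3 atypical receptors, Ackr2, Ackr3 and Ackr4, are red and above 0.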

How the data were processed

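Single cells of mouse heart were sequenced by the authors with Smart-seq2. Per the study's methods, reads were trimmed with Trim Galore and mapped to GRCm38 with TopHat2, and the deposited table holds raw counts per gene and cell from featureCounts. The annotation release and strand setting are not given in the sources used here. The authors had removed cells with few counts or genes, possible doublets, cells rich in spike-ins or mitochondrial counts, and cells with endothelial or immune signatures, and had assigned the clusters with pagoda2. No further doublet caller was run, and no cell was removed at this step.

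Spike-ins (1.82% of counts) were set aside. Positions came from GENCODE M21. Totals per cell ran from 46268 to 1302400 counts. Counts were summed per strain and side with at least 3 cells, and sides were tested by quasi-likelihood in edgeR 4.0.16 under R 4.3.3 (TMM, filterByExpr with a minimum count of 10, Benjamini-Hochberg threshold 0.05). Simulated sums served only to check the code, for fibroblasts against mural cells and for cluster 1. They had a fixed dispersion and no strain effect, unlike the real sums. The SE was obtained as the size of the log2 fold change over the root of F. Alternatives were a block for strain, DESeq2 1.42.0, limma 3.58.1, other filters and weights, plates as units, and leaving out each strain. Both sides of each reporter strain came from its 1 plate, whereas the C57BL6 mural cells came from 1 of the 3 plates that held its fibroblasts. Which cells shared a mouse was not given in the sources used here, and the deviations of the 2 sides of a strain from their group means correlated at 0.06 to 0.24 over genes (Pearson, by strain and comparison). Intervals cover counting error only, since reads that carry no molecular identifier may copy 1 molecule.

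The members and lists were chosen with earlier results of these data known. All members were named in every comparison. From the lists, genes past the threshold were named, up to 5 per list and comparison by the size of the fold change, and for each member the 3 genes most like it.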

Additional observations from a re-analysis of the deposited data

Results flagged for a closer look

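In 11 of 63 groups of 4 strains, 1 strain stood apart from the other strains by Dixon's criterion. Its rate of about 1 in 20 groups by chance holds for independent, normally distributed values. Here CPM was not log-transformed, all 11 flags were at the high end, and some groups share cells. The count of 11 therefore cannot be compared with that rate, and the flags are descriptions. In cluster 8 the Acta2GFP sum was the one apart, for Ccl11 at 566 CPM (next 92.7), Ccl19 at 140 CPM (next 14.1) and Il6 at 21.7 CPM (next 2.27). In cluster 1, PdgfrbGFP stood apart for Cxcl1 at 133.4 CPM (next 16.4) and Il6 at 84.2 CPM (next 2.08), where 1 of 22 cells held 94.4% of the Il6 counts, and C57BL6 for Ccl2 at 25.2 CPM (next 0.660).

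Cspg4dsRED stood apart in cluster 4 for Cxcl14 at 491 CPM (next 101.7), Cxcl12 at 421 CPM (next 188.7) and Il34 at 62.3 CPM (next 8.16), where it had 13 cells. It also stood apart for Il34 in all fibroblasts at 38.4 CPM (next 11.99) and in cluster 1 at 132.04 CPM (next 8.21), where it had 3 cells.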

How the results depend on the processing

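Strain, plate and mouse cannot be separated, so the 4 strains limit every test, and sums of few cells or of 1 high cell limit depth. Between fibroblasts and mural cells, 4 members were called, and 3 to 6 when 1 strain was left out; DESeq2 called 6 and limma 5. For cluster 1 it was 3 members, 1 with the block, 1 to 3 without 1 strain, 4 with DESeq2 and 4 with limma. For cluster 3 it was 0, but 2 with the block, 2 with DESeq2, 1 without the filter, 1 without the cell with the most counts and 2 with C57BL6 plates as units. For cluster 5 it was 0, but 2 with DESeq2 and 3 without the filter, and for cluster 8 it was 0, but 1 with DESeq2, without the filter or without the top cell. Leaving out a strain was not run for cluster 5, which had 2 strains. The block changed no other member's call than those named beside the results. The share of all genes called moved too. Between fibroblasts and mural cells it was 5.93%, but 12.7% with DESeq2, 9.22% in limma, 2.58% without the filter, 2.70% without Acta2GFP, 2.79% without C57BL6, 3.91% without Cspg4dsRED and 2.66% without PdgfrbGFP. For cluster 1 it was 1.33%, but 0.742% with the block, 5.22% with DESeq2, 2.36% in limma, 0.530% without the filter, 0.748% with 10 cells per sum, and 0.201%, 0.265%, 0.748% and 0.356% without Acta2GFP, C57BL6, Cspg4dsRED and PdgfrbGFP. For clusters 2 to 5 it was 0, but 0.789% to 2.61% with DESeq2, and at most 0.236%, with the block in cluster 3, in every other fit. For cluster 8 it was 0.194%, but 0.691% with the block, 3.20% with DESeq2, 0.379% with its size factors and in limma, 0.855% without the filter, 1.62% without the top cell, 0.987% without Acta2GFP, 0.112% without Cspg4dsRED, and 0 with 10 cells per sum or without PdgfrbGFP.

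Of the log2 fold changes of members, 628 kept direction and side of the threshold, 12 lost it, 26 gained it and 38 changed sign; the cause was not tested. With the block the sign turned for Il34 in clusters 1 (-2.07) and 4 (-0.96), Cxcl1 (0.082) and Ccl2 (-0.084) in cluster 2 and Il6 in cluster 8 (0.64). In limma it turned for Il34 in cluster 1 (-1.38), Ccl2 in clusters 2 (-0.59) and 4 (0.22) and Cxcl14 in cluster 8 (0.20). With DESeq2 and with its size factors it turned for Cxcl12 in cluster 4 (0.017 in both) and Cxcl1 in cluster 8 (-0.71 and -0.70). Without the cell with the most counts it turned for Il34 in cluster 1 (-2.54), Cxcl1 in cluster 2 (0.037) and Cxcl12 in cluster 4 (0.22). With 10 cells per sum it turned for Il34 in cluster 1 (-1.93), Il6 in cluster 3 (-0.14) and Cxcl14 in cluster 8 (0.51). Without 1 strain the ranges that crossed 0 were -0.12 to 0.69 for Ccl2 between fibroblasts and mural cells, -1.93 to 1.32 for Il34 in cluster 1, -0.20 to 0.75 for Ccl11, -0.66 to 2.42 for Il34, -0.22 to 0.24 for Cxcl1 and -1.59 to 0.090 for Il6 in cluster 2, -0.34 to 0.90 for Cxcl12 and -0.14 to 2.17 for Il6 in cluster 3, -0.58 to 0.14 for Cxcl12, -1.80 to 1.62 for Il34 and -0.67 to 0.0043 for Ccl19 in cluster 4, and -1.48 to 3.74 for Cxcl1, -4.47 to 3.77 for Il6 and -0.59 to 0.51 for Cxcl14 in cluster 8.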
